A study of Danio rerio with 4 samples.

Results

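Cytochrome P450 genes encode haem enzymes that insert an oxygen atom into small molecules. They were taken from the files as the protein-coding genes whose symbol begins with cyp followed by a number, which gave 84 of 42298 genes, or of 26381 protein-coding genes. The number after cyp names the family. Families 1 to 3 act mainly on foreign compounds, drugs and some signalling lipids, and the other families serve steroid hormones, bile acids and sterols, retinoids, vitamin D or fatty acids. In vertebrates, liver, gut, skin and the steroid-producing glands are main sites of their expression. The mRNA of several family 1 genes is switched on through the aryl hydrocarbon receptor, a sensor of dioxin-like and plant compounds. P450 enzymes need electrons from a partner protein, which is P450 oxidoreductase in the endoplasmic reticulum and ferredoxin in mitochondria.

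The members comprised 50 genes of families 1 to 3, 17 of bile acid and sterol families (7, 8, 27, 39, 46 and 51), 8 of steroid hormone families (11, 17, 19 and 21), 4 of family 4, whose enzymes hydroxylate fatty acids, 3 of family 26, whose enzymes degrade retinoic acid, the vitamin D inactivating gene cyp24a1, and cyp20a1, whose substrate is not known. The classes follow the family number alone. Family 27 therefore stands with the sterols although cyp27b1 activates vitamin D and cyp27c1 acts on retinoids, and cyp2r1, which begins the activation of vitamin D, and cyp2u1, a fatty acid hydroxylase in human, stand with families 1 to 3.

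RNA was sequenced from mCherry-positive cells that the labels call β-cell enriched, sorted from dissociated whole zebrafish at 5 dpf. The 2 alms1 mutant libraries came from larvae labelled alms1-/- that carried Tg(ins:mCherry), and the 2 wild-type libraries came from larvae with the same transgene, in which the insulin promoter drives the red fluorescent protein. The labels name no allele. By the study's methods a large number of larvae went into the sort, few cells were used for sequencing, and samples were handed over in duplicate for library preparation. Neither source says whether the duplicates came from separate sorts or clutches, and the p-values therefore cover no more than the variation among these 4 libraries, part of which may be technical. alms1, mutated in the human obesity and diabetes syndrome named after Alström, had 8.98 and 18.4 normalised reads per 1000000 reads (CPM) in the mutant libraries and 24.9 and 23.1 in wild type (log2 fold change -0.81, SE 0.37, adjusted p = 0.104). This level neither bears out nor contradicts the genotype labels, since the kind of mutation is not given.

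The libraries held 42761199 to 50467517 reads on genes, of which 94.0% to 94.7% mapped uniquely. Of 14 β-cell marker genes 4 were called higher in the mutants. By the same test, described below, 19.2% of all genes were higher and 24.3% lower. The insulin gene ins had 10.8 and 7.26 CPM in the mutants and 0.433 and 1.70 in wild type, so that the β-cell label was not borne out by a high level of its defining marker. Skin markers summed to 5324 and 5040.0 CPM in the mutants, against 53311 and 47454 in wild type, and 12 of 12 were lower. Mesenchyme and fin markers (6 of 6), leukocyte markers (6 of 6) and neuron and radial glia markers (4 of 6) were lower as well. Of 4 endothelial markers 1 was lower, a share near that of all genes, with a median log2 fold change of -0.05. Liver markers summed to 756 and 541 CPM in the mutants, against 188 and 259.9 in wild type, with 9 of 11 higher, and intestine markers to 486 and 399.8 CPM, against 127 and 141, with 6 of 9 higher. Of acinar markers 8 of 9, of skeletal muscle markers 8 of 10 and of erythroid markers 2 of 6 were higher. Every marker measured had reads in both genotypes. In such bulk samples fewer cells of a type and less RNA per cell cannot be told apart, and the part of these shifts in the values below was not tested beyond the values given.

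P450 genes took 0.113% and 0.119% of the reads in the mutants and 0.181% and 0.122% in wild type. Their summed level was 975 and 944 CPM in the mutants, against 1985 and 1619.6 in wild type, and family 1 alone gave 164 and 162 CPM in the mutants and 904 and 618 in wild type. Levels were compared between genes as TPM, reads per kb of gene span with a common sum in every library. By that measure cyp2ad3 led in the mutants, with 119.7 ± 49.2 TPM, against 239 ± 88.5 in wild type (SD, n = 2 each), and cyp1c1 led in wild type, with 102 ± 49.4 TPM in the mutants and 317 ± 208 in wild type. In the mutants the bile acid gene cyp7a1 came next after cyp2ad3, cyp1c1 and cyp1a, with 46.1 ± 13.9 TPM, against 2.75 ± 1.26 in wild type, and the mutant and wild-type libraries did not overlap. Where both libraries of a genotype had 10 reads or more and reached 1 TPM, a gene was taken as detected, and 75 P450 genes were so in the mutants and 47 in wild type. Of these, 45 were detected in both. The sterol family genes cyp27c1 and cyp8b2 passed these limits in wild type only. Detection was not compared by a test, and with a limit of 1 read the counts were 83 in the mutants and 81 in wild type. The limit of 1 TPM lies on a scale where the median of all genes was 0.69 higher in the mutants (log2 of TPM + 1). The share of all genes detected in each genotype is not given, so the counts cannot be read as particular to P450 genes.

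Of the 84 genes 83 had enough reads for a test across all genes (edgeR, quasi-likelihood, p-values adjusted by Benjamini-Hochberg over all of them). The steroid gene cyp17a2 had no read in the mutants and 0 and 3 reads in wild type and was left out. At an adjusted p under 0.05, 15 of the 83 were higher in the mutants (18.1%, against 19.2% of all 28079 genes tested) and 17 were lower (20.5%, against 24.3% of all genes). In this fit both shares lay near the background and slightly below it. Their median log2 fold change was 0.30, compared with 0.03 for all genes, and it was the same with cyp2k31, which had no wild-type read, set at its lower bound. The rises ran from 0.87 in cyp2j20 to 3.11 in cyp7a1 on the log2 scale, apart from cyp2k31, and the falls from -0.83 in cyp2aa6 to -2.58 in cyp1c1. For each of the 32 genes called, the mutant and wild-type libraries did not overlap. With 2 libraries a genotype such separation adds little to a call, and genes not called, such as cyp17a1 and cyp3c2, showed it as well. On the TPM scale, where the median of all genes moved by 0.69 on the log2 scale, limma-trend called 36 P450 genes higher (43.4%, against 35.2% of all genes) and 6 lower (7.23%, against 5.87% of all genes). DESeq2 called 22 higher (26.5%, against 22.5% of all genes) and 18 lower (21.7%, against 26.5% of all genes). Whether the P450 share was above or below that of all genes thus varied with the tool.

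**Figure D1:**
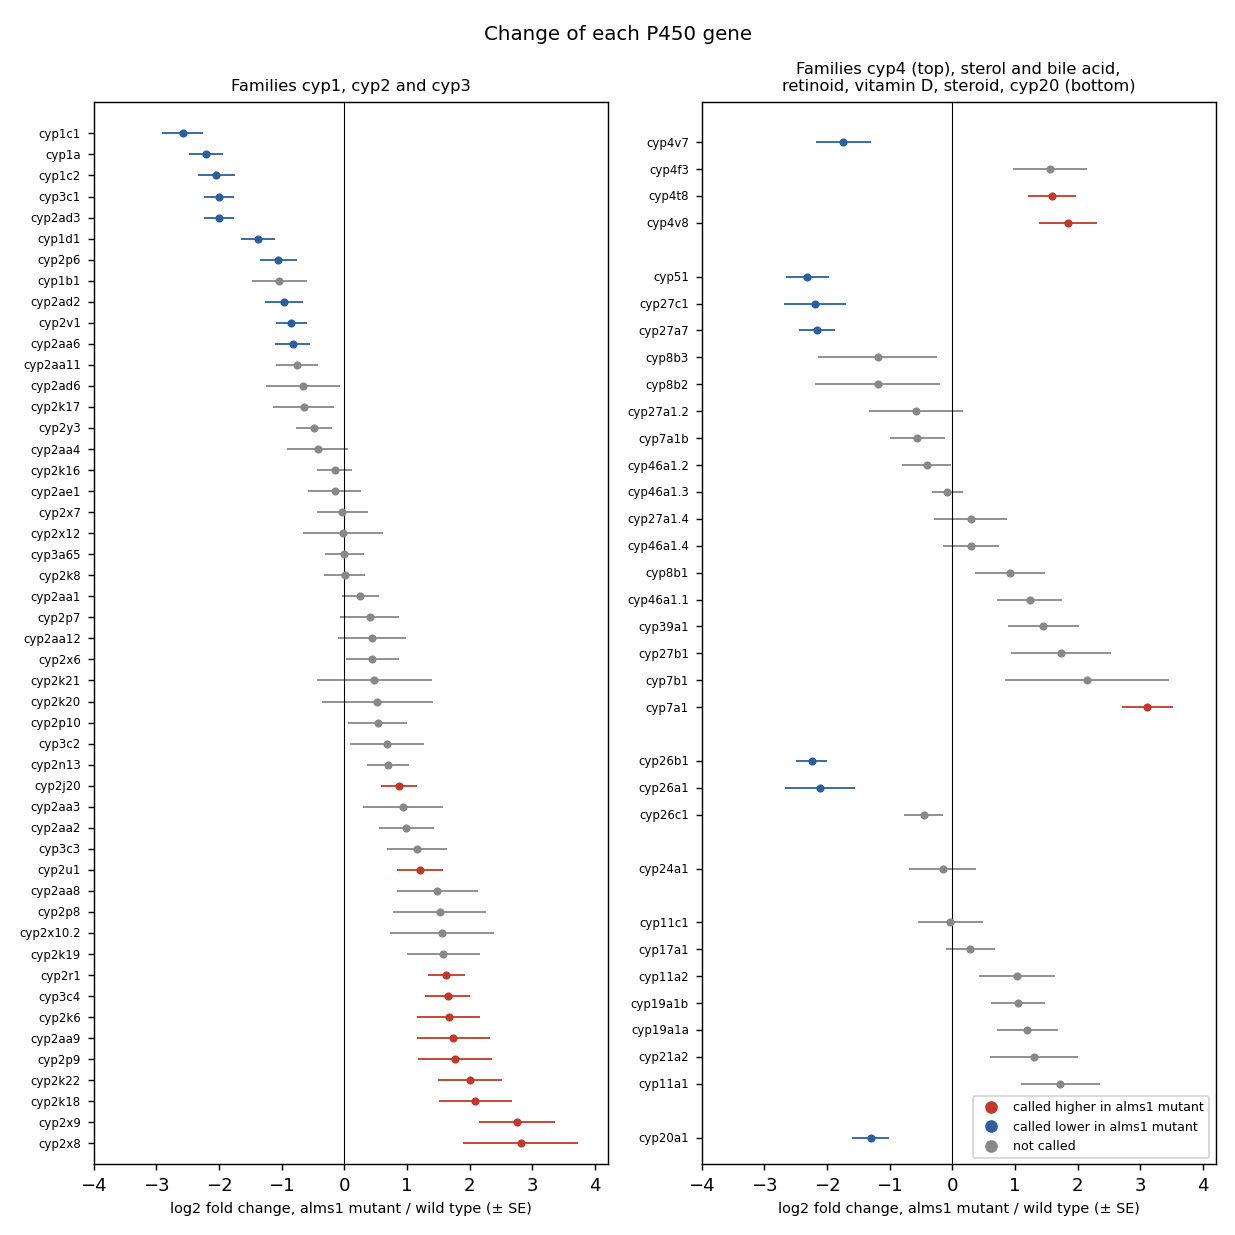
Log2 fold change, alms1 mutant over wild type, of 82 P450 genes with its standard error (2 libraries a genotype, edgeR), families 1 to 3 on the left and the other families on the right, with genes called higher in red, called lower in blue and not called in grey. The largest falls were those of cyp1c1 (-2.58) and cyp51 (-2.31) and the largest rise that of cyp7a1 (3.11), and cyp2k31, without wild-type reads, is not drawn.

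Of 5 genes of family 1, 4 were called lower in the mutants (24.3% of all genes were), by 1.38 or more on the log2 scale. Values in parentheses are log2 fold changes, mutant over wild type, unless named otherwise, with the standard error and the adjusted p. cyp1a, the gene most used as a sign of aryl hydrocarbon receptor activity in fish, had 110.2 and 94.7 CPM in the mutants, against 550.3 and 394 in wild type, and fell by 2.204 on the log2 scale (SE 0.27, adjusted p = 0.000930). cyp1c1 and cyp1c2, a fish pair that responds to the same receptor in zebrafish, were lower by more than their spread. cyp1c1 had 29.6 and 42.9 CPM in the mutants and 274 and 159 in wild type (-2.58, SE 0.33, adjusted p = 0.00107). cyp1c2 had 6.42 and 6.76 CPM in the mutants and 29.3 and 25.2 in wild type (-2.05, SE 0.30, adjusted p = 0.00158). The wild-type libraries of cyp1c1 lay further apart than those of cyp1c2, but neither came near the mutant values. cyp1d1 had 14.9 and 14.3 CPM in the mutants, against 43.3 and 32.5 in wild type (-1.38, SE 0.27, adjusted p = 0.00506). cyp1b1, a receptor target that in human is mutated in congenital glaucoma, had 2.82 and 3.64 CPM in the mutants and 6.501 and 6.76 in wild type. It did not pass in edgeR (-1.04, SE 0.44, adjusted p = 0.0847), whereas DESeq2 called it and so all 5 genes lower (adjusted p = 0.0430). By limma-trend on TPM neither cyp1b1 (-0.038, adjusted p = 0.958) nor cyp1d1 (-0.34, 0.569) passed. With the read level of long genes subtracted, as described below, edgeR called neither cyp1b1 (adjusted p = 0.124) nor cyp1d1 (0.0585). The genes lie apart on GRCz10, cyp1a on chromosome 18 from 5738733 to 5749620, cyp1c2 on chromosome 17 from 794442 to 796630 and cyp1d1 on chromosome 5 from 25006505 to 25021167, with cyp1c1 on an unplaced sequence, so that the fall was not that of a single cluster.

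No read of cyp1a was mapped uniquely. Its whole span lies within ulk3, a kinase gene on the other strand, and the libraries do not mark strand. ulk3 had 19.2 and 22.2 CPM in the mutants and 15.2 and 15.9 in wild type over a span of 91160 bp, with 60.0% unique reads, and its log2 fold change was 0.41 (SE 0.28, adjusted p = 0.252). The reads counted for cyp1a thus outnumbered those counted for the surrounding gene. For cyp1c1 98.0%, for cyp1c2 97.0% and for cyp1d1 99.8% of the reads were unique, and all 3 fell on unique reads as well, cyp1c1 with a log2 fold change of -2.60 (adjusted p = 0.000364).

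**Figure D2:**
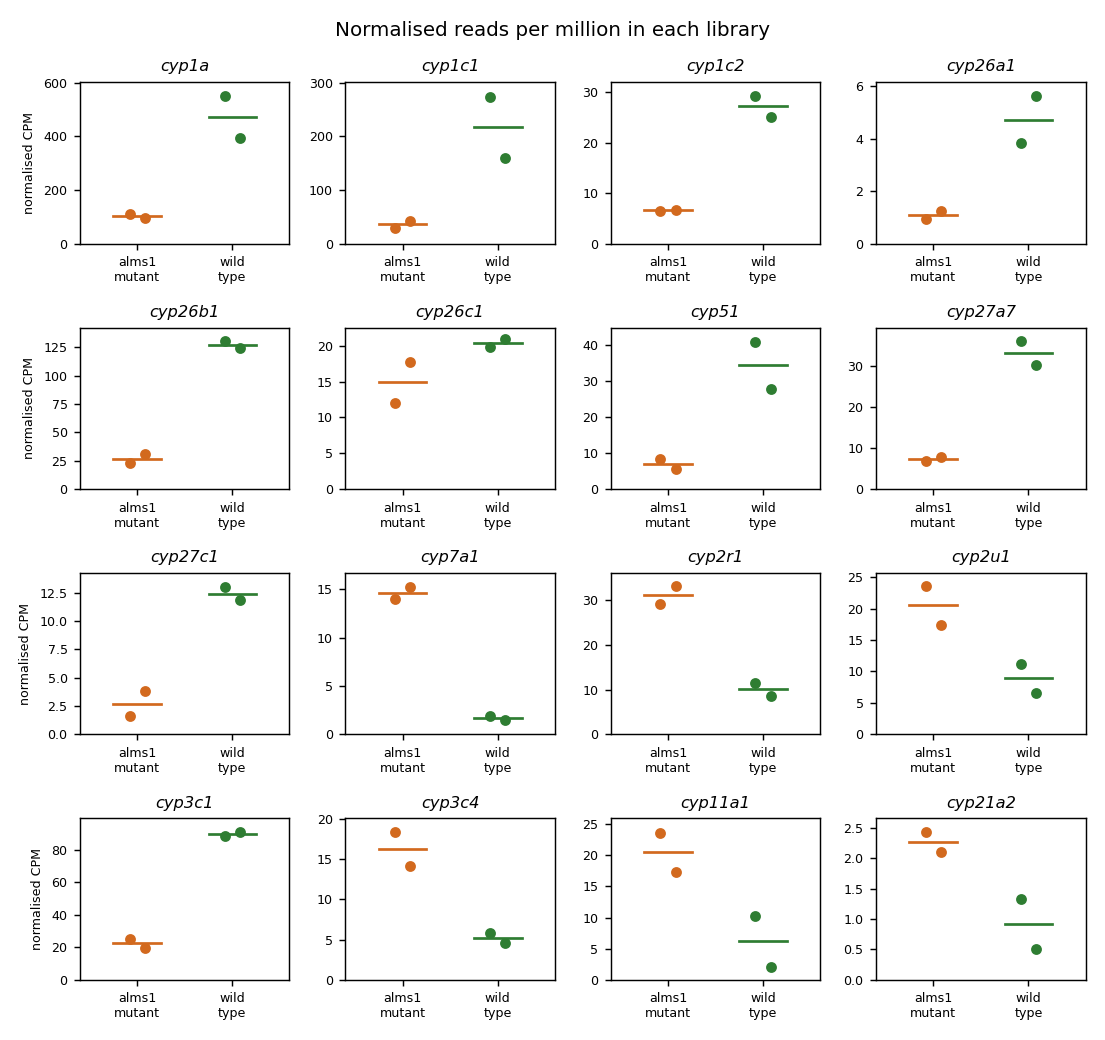
Normalised CPM of 16 P450 genes in each alms1 mutant library (left, orange) and each wild-type library (right, green), with a line at the mean of 2 libraries and a separate linear axis from 0 for each gene. The family 1 genes, cyp26a1, cyp26b1, cyp51, cyp27a7, cyp27c1 and cyp3c1 lay lower in both mutant libraries and cyp7a1, cyp2r1, cyp2u1 and cyp3c4 higher, whereas cyp26c1, cyp11a1 and cyp21a2 did not pass the test.

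Of 9 genes of the aryl hydrocarbon receptor pathway 4 fell (24.3% of all genes did) and 2 rose (19.2% of all genes did), the second a share near the background. nqo1, a quinone reductase, had 44.1 and 43.5 CPM in the mutants and 168 and 208 in wild type (-2.10, SE 0.23, adjusted p = 0.000699). tiparp, a target that feeds back on the receptor, fell by 1.80 (SE 0.22, adjusted p = 0.000926). The receptor gene ahr2, the main mediator of dioxin toxicity in zebrafish, had 135 and 128 CPM in the mutants, against 293 and 357 in wild type (-1.30, SE 0.24, adjusted p = 0.00366). The other receptor genes moved the opposite way, with ahr1a at 1.59 (SE 0.31, adjusted p = 0.00513) and ahr1b at 1.29 (SE 0.27, adjusted p = 0.00638). The repressor gene ahrra fell by 1.56 (SE 0.37, adjusted p = 0.0101). By limma-trend on TPM ahr2 (adjusted p = 0.641) and tiparp (0.147) did not pass. The call of ahr2 did not hold without mutant replicate 1 or without mutant replicate 2, at log2 fold changes of -1.35 and -1.27. The median of the 9 genes was -0.84, compared with 0.03 for all genes. Beside these changes the skin markers were lower in 12 of 12 genes, and whether the family 1 transcripts came from skin cells was not tested.

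Of the 3 genes of family 26, whose enzymes clear retinoic acid, 2 fell (24.3% of all genes did). cyp26b1 had 22.9 and 30.7 CPM in the mutants and 130.2 and 124 in wild type, a fall of 2.24 on the log2 scale (SE 0.25, adjusted p = 0.000674). cyp26a1, in zebrafish a retinoic acid target of the early embryo, was read far less, with 0.932 and 1.25 CPM in the mutants and 3.84 and 5.62 in wild type (-2.11, SE 0.55, adjusted p = 0.0160). cyp26c1, which acts in the hindbrain of the embryo, had 12.1 and 17.8 CPM in the mutants and 19.9 and 21.02 in wild type, and its libraries did not overlap, but the difference did not pass the test (-0.46, SE 0.31, adjusted p = 0.252). The fall of cyp26b1 held in every alternative that tested it. That of cyp26a1 did not pass without mutant replicate 1 (adjusted p = 0.0822), without mutant replicate 2 (0.0529) or without wild-type replicate 2 (0.0633). cyp27c1, which desaturates vitamin A and in zebrafish shifts the sensitivity of the eye to red light, fell as well, with 1.601 and 3.84 CPM in the mutants, against 13.0 and 11.8 in wild type (-2.19, SE 0.50, adjusted p = 0.00893). By limma-trend on TPM cyp26a1 (adjusted p = 0.166) and cyp27c1 (0.154) did not pass.

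Of 17 genes that make, carry or sense retinoic acid 10 were lower and 3 higher, beside 24.3% lower and 19.2% higher of all genes, with a median of -1.047. crabp2b and crabp2a encode proteins that bring retinoic acid to its receptors. crabp2b had 3.20 and 4.94 CPM in the mutants, against 31.7 and 27.9 in wild type (-2.87, SE 0.34, adjusted p = 0.000849), and crabp2a changed by -2.004 (SE 0.29, adjusted p = 0.00165). By limma-trend on TPM crabp2a did not pass (adjusted p = 0.0756). rdh10a, which oxidises retinol to retinal, fell by 2.33 (SE 0.25, adjusted p = 0.000646), and aldh1a2, which makes retinoic acid from retinal, by 0.89 (adjusted p = 0.0171). The genes called higher were aldh1a3 (1.72), another enzyme of that step, the retinol transporter stra6 (1.38) and the receptor gene raraa (0.80). Mesenchyme and fin markers, which summed to 2146 and 1922 CPM in the mutants and 13827 and 15734 in wild type, were lower in 6 of 6 genes beside these changes, and their part in them was not tested.

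Of 17 genes of bile acid and sterol families 3 fell and 1 rose, both shares below those of all genes (24.3% and 19.2%). The rise was that of cyp7a1, the rate-limiting enzyme of bile acid synthesis from cholesterol. cyp7a1 had 688 and 935 reads in the mutants and 86 and 54 in wild type, or 13.9 and 15.2 CPM in the mutants, against 1.86 and 1.502 in wild type. It was 8.63-fold higher in the mutants (log2 fold change 3.11, SE 0.41, adjusted p = 0.00113), all of its reads were unique, and the rise held in every alternative that tested it. cyp8b1, the sterol hydroxylase of the same pathway, had 2.98 and 6.27 CPM in the mutants and 2.95 and 1.92 in wild type (0.93, SE 0.56, adjusted p = 0.206) and did not pass in edgeR. By limma-trend on TPM cyp8b1 was called higher (1.66, adjusted p = 0.00417). Its neighbours cyp8b2 and cyp8b3 had at most 0.695 CPM in any library. cyp39a1, an oxysterol hydroxylase in mammals, had 8.63 and 5.67 CPM in the mutants and 3.75 and 1.45 in wild type (1.45, SE 0.56, adjusted p = 0.0649), and its call rested on the setting, since DESeq2 gave an adjusted p of 0.0295. cyp7b1, which hydroxylates oxysterols in mammals, had 839 and 900 reads in the mutants and 325 and 0 in wild type, where the libraries disagreed (2.15, SE 1.31, adjusted p = 0.206). Without wild-type replicate 2, which held no read of cyp7b1, the log2 fold change was 1.17 (adjusted p = 0.0369). Without wild-type replicate 1 no wild-type read was left, so that no fold is given, and cyp7b1 was called higher (adjusted p = 4.24e-07), as it was by limma-trend (2.28, adjusted p = 0.000461).

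Of 8 other genes of bile acid handling 3 were called higher (19.2% of all genes were), with a median of 1.06. fgf19, a gut hormone gene that bile acids induce in mammals and whose product lowers Cyp7a1 in mouse liver, had 10.8 and 11.6 CPM in the mutants and 4.096 and 1.84 in wild type (1.91, SE 0.48, adjusted p = 0.0137). abcb11b, a bile salt export pump gene, had 24.1 and 28.9 CPM in the mutants, against 12.4 and 6.06 in wild type (1.52, SE 0.38, adjusted p = 0.0133). nr1h4, the bile acid receptor, rose by 1.14 (SE 0.33, adjusted p = 0.0237). With the read level of long genes subtracted, as described below, edgeR called none of these 3 (adjusted p = 0.0578 for fgf19, 0.33 for abcb11b and 0.0663 for nr1h4). Without mutant replicate 2 their calls did not hold either, at log2 fold changes of 1.86 for fgf19, 1.38 for abcb11b and 0.94 for nr1h4. Liver markers (9 of 11 higher, median 1.59) and intestine markers (6 of 9 higher, median 1.34) moved the same way, and whether the rise of cyp7a1 goes beyond theirs was not tested. The liver marker fabp10a rose by 1.84 (SE 0.47), the intestine marker apoa4a by 2.75 (SE 0.50) and cyp7a1 by 3.11 (SE 0.41).

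cyp51, which removes a methyl group from lanosterol on the way to cholesterol, fell by 2.31 (SE 0.34, adjusted p = 0.00170), with 8.29 and 5.56 CPM in the mutants, against 40.9 and 27.9 in wild type. Of 9 other genes of the steps after squalene oxidation 5 fell (24.3% of all genes did), with a median of -1.03. msmo1, which removes further methyl groups after cyp51, had 9.81 and 8.35 CPM in the mutants and 24.8 and 28.1 in wild type (-1.54, SE 0.29, adjusted p = 0.00426). nsdhl, which acts with it, fell by 1.44 (SE 0.35, adjusted p = 0.0124), and ebp by 1.14 (SE 0.33, adjusted p = 0.0223). Of the reads of ebp 64.9% were unique. With the read level of long genes subtracted, edgeR called neither nsdhl (adjusted p = 0.0739) nor ebp (0.223). By limma-trend on TPM cyp51 (adjusted p = 0.0659), msmo1 (0.411), nsdhl (0.593) and ebp (0.774) did not pass. lss, which makes lanosterol, did not pass (-0.19, adjusted p = 0.777). cyp27a7, a sterol side-chain hydroxylase by its family, had 6.95 and 7.90 CPM in the mutants and 36.0 and 30.2 in wild type (-2.16, SE 0.29, adjusted p = 0.00121). By limma-trend on TPM cyp27a7 did not pass (adjusted p = 0.0605). Its neighbours on chromosome 9, cyp27a1.2 and cyp27a1.4, had at most 2.11 CPM in any library and were not called. The 4 cyp46a1 genes, whose mammalian counterpart clears cholesterol from neurons, summed to 42.6 and 41.1 CPM in the mutants and 40.7 and 42.7 in wild type. None was called by edgeR, 1 had an unadjusted p under 0.05, and DESeq2 called 1.

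No gene of the steroid hormone families was called by edgeR among the 7 tested (19.2% of all genes were called higher and 24.3% lower). An unadjusted p under 0.05 was found for 3, and DESeq2 called 3 higher (22.5% of all genes were). On the TPM scale limma-trend called 5 higher (35.2% of all genes were). The summed level of the steroid families was 52.1 and 44.2 CPM in the mutants and 28.5 and 18.6 in wild type. cyp11a1, which cuts the side chain of cholesterol and so opens steroid synthesis, was the highest of them in both mutant libraries, with 23.6 and 17.3 CPM in the mutants, against 10.3 and 2.06 in wild type, where the libraries differed widely. Its log2 fold change was 1.73 (SE 0.63), with an adjusted p of 0.0536 on all reads and 0.0377 on uniquely mapped reads. Without wild-type replicate 1 it was 3.40 (adjusted p = 2.99e-05). The aromatase genes of ovary and brain, which turn androgens into oestrogens, were read in every library. cyp19a1a had 5.29 and 5.07 CPM in the mutants and 2.62 and 1.89 in wild type (1.20, SE 0.48, adjusted p = 0.0742). cyp19a1b had 6.30 and 7.199 CPM in the mutants and 3.06 and 3.45 in wild type (1.054, SE 0.43, adjusted p = 0.0771). DESeq2 called both higher (adjusted p = 0.0375 for cyp19a1a and 0.0345 for cyp19a1b).

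The genes of the later steps of cortisol synthesis were low in both genotypes. cyp21a2 had 2.43 and 2.10 CPM in the mutants and 1.32 and 0.501 in wild type (1.30, SE 0.70, adjusted p = 0.161), and limma-trend on TPM called it higher (adjusted p = 0.0314). cyp17a1, whose enzyme hydroxylates pregnenolone and progesterone, had 7.86 and 6.94 CPM in the mutants and 6.54 and 5.56 in wild type (0.29, SE 0.39, adjusted p = 0.568). cyp11c1 completes cortisol and takes part in making the main androgen of fish. It had 4.66 and 2.42 CPM in the mutants and 3.58 and 3.67 in wild type, and its libraries overlapped (-0.03, SE 0.52, adjusted p = 0.963). cyp11a2, the other side-chain cleavage gene, had at most 3.15 CPM in any library, and limma-trend on TPM called it higher (adjusted p = 0.0475). Of 10 partner genes of steroid action 2 fell and 1 rose, both shares below those of all genes. star, which moves cholesterol into mitochondria and marks steroid-making cells, had 1.62 and 2.37 CPM in the mutants, against 5.46 and 7.09 in wild type (-1.65, SE 0.49, adjusted p = 0.0255). hsd11b2, which inactivates cortisol, fell by 1.43 (SE 0.25, adjusted p = 0.00316), and hsd17b1, which makes estradiol, was higher by 1.93 (SE 0.63, adjusted p = 0.0370). With the read level of long genes subtracted, edgeR called none of these 3 (adjusted p = 0.128 for star, 0.0535 for hsd11b2 and 0.0612 for hsd17b1). By limma-trend on TPM star (0.379) and hsd11b2 (0.38) did not pass either. Interrenal gland markers summed to 39.6 and 60.0 CPM in the mutants and 27.8 and 34.6 in wild type, with 1 of 6 higher and 1 of 6 lower.

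Of the P450 genes of vitamin D, that of the first step was called by edgeR on all reads and those of the later steps were not. cyp2r1, which hydroxylates vitamin D to its circulating form, had 29.0 and 33.0 CPM in the mutants, against 11.5 and 8.62 in wild type, a rise of 1.62 (SE 0.29, adjusted p = 0.00361) that held in every alternative that tested it. cyp27b1, which makes the active hormone, had 41 and 156 reads in the mutants and 26 and 16 in wild type (1.73, SE 0.80, adjusted p = 0.108), and limma-trend on TPM called it higher (adjusted p = 0.0226). cyp24a1, which inactivates it, had 2.11 and 3.67 CPM in the mutants and 3.10 and 3.34 in wild type, with overlapping libraries (-0.15, SE 0.53, adjusted p = 0.830). gc, the vitamin D binding protein of plasma, had 24.9 and 26.9 CPM in the mutants and 6.72 and 5.23 in wild type (2.11, SE 0.31, adjusted p = 0.00169), whereas the receptor gene vdrb fell by 1.56 (SE 0.30, adjusted p = 0.00433). dhcr7, which uses up the vitamin D precursor to make cholesterol, had 7.46 and 13.0 CPM in the mutants and 20.8 and 25.9 in wild type (-1.19, SE 0.35, adjusted p = 0.0250). With the read level of long genes subtracted, edgeR did not call dhcr7 (adjusted p = 0.197). By limma-trend on TPM dhcr7 (0.8) and vdrb (0.348) did not pass.

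Of 4 genes of family 4, 2 rose and 1 fell, beside 19.2% and 24.3% of all genes. The closely related pair cyp4v7 and cyp4v8 moved in opposite directions. Their human counterpart, CYP4V2, hydroxylates fatty acids in the retina and is mutated in a crystalline retinal dystrophy. cyp4v7 had 18.8 and 11.5 CPM in the mutants, against 29.0 and 72.2 in wild type (-1.74, SE 0.44, adjusted p = 0.0137). cyp4v8 had 14.2 and 12.9 CPM in the mutants, against 5.14 and 2.34 in wild type (1.85, SE 0.46, adjusted p = 0.0128). The call of cyp4v7 did not hold without mutant replicate 2, at a log2 fold change of -1.43, nor that of cyp4v8 without mutant replicate 1, at 1.77. By limma-trend on TPM cyp4v7 did not pass (adjusted p = 0.293). With the read level of long genes subtracted, as described below, edgeR called neither cyp4v7 (adjusted p = 0.109) nor cyp4v8 (0.0873). cyp4t8 had 35.7 and 41.4 CPM in the mutants and 17.7 and 7.90 in wild type (1.59, SE 0.38, adjusted p = 0.0113, and 0.0513 without mutant replicate 2). cyp4f3, whose human counterpart inactivates leukotrienes, had 3.73 and 11.6 CPM in the mutants and 2.34 and 2.86 in wild type and did not pass in edgeR (1.56, SE 0.59, adjusted p = 0.0597). DESeq2 called it higher (adjusted p = 0.0230), but on its unique reads, 27.5% of all, the log2 fold change was 0.20 (adjusted p = 0.803). cyp2u1, the fatty acid hydroxylase of family 2, had 23.6 and 17.4 CPM in the mutants, against 11.2 and 6.59 in wild type (1.20, SE 0.37, adjusted p = 0.0283), a call that did not pass without mutant replicate 1 (0.163), mutant replicate 2 (0.0540) or wild-type replicate 2 (0.0809). cyp20a1 had 9.04 and 8.29 CPM in the mutants and 21.6 and 21.1 in wild type (-1.30, SE 0.30, adjusted p = 0.00915). Its call did not hold without mutant replicate 2, at a log2 fold change of -1.24, or by limma-trend on TPM (-0.26, adjusted p = 0.698).

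Families 2 and 3 held 45 of the 84 genes, and 12 of these rose and 6 fell, beside 19.2% and 24.3% of all genes. In total 45 P450 genes lay in 8 runs of at least 3 genes with gaps of up to 100 kb, most of them family 2 and 3 genes. Neighbours did not move as a block. In the run of 4 cyp3c genes on chromosome 3 from 40794236 to 40834674, the first and the last gene went opposite ways. cyp3c4 had 18.4 and 14.1 CPM in the mutants, against 5.81 and 4.53 in wild type (1.65, SE 0.36, adjusted p = 0.00776). cyp3c1 had 25.3 and 19.7 CPM in the mutants, against 88.5 and 91.1 in wild type (-1.997, SE 0.24, adjusted p = 0.000884). Between them cyp3c3 (1.15, SE 0.48) and cyp3c2 (0.68, SE 0.59) did not pass in edgeR, though DESeq2 called cyp3c3 higher (adjusted p = 0.0409). The rise of cyp3c4 did not pass without mutant replicate 1 (adjusted p = 0.0625). cyp3a65, the zebrafish relative of the main drug-metabolising P450 of human liver, lies on another chromosome and had 21.1 and 15.4 CPM in the mutants and 15.5 and 21.2 in wild type, with overlapping libraries (-0.00, SE 0.31, adjusted p = 0.997).

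**Figure D3:**
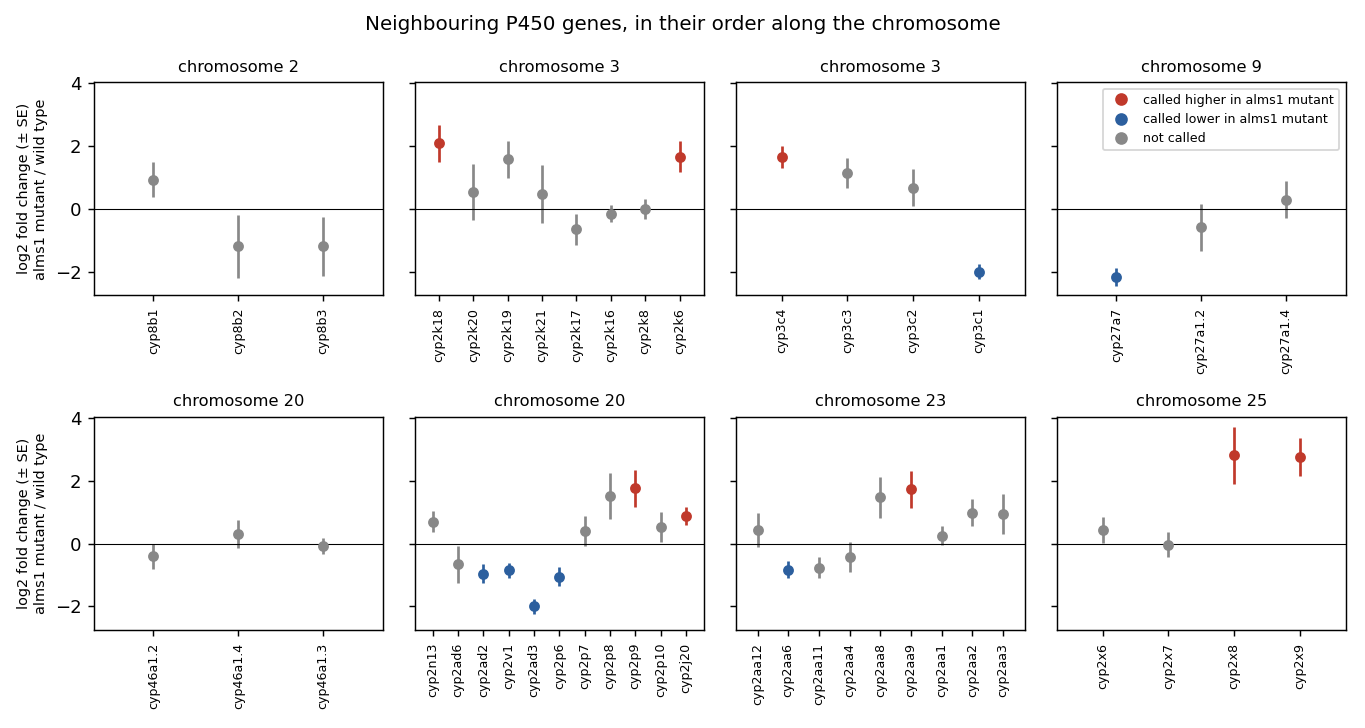
Log2 fold change, alms1 mutant over wild type, with its standard error for the 45 P450 genes in 8 runs of neighbours, in their order along each chromosome and coloured by call. In the cyp3c run on chromosome 3 cyp3c4 rose by 1.65 and cyp3c1 fell by 1.997, and in the run of 11 genes on chromosome 20 the 4 genes called lower lie side by side.

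The run of 11 genes on chromosome 20 from 25616169 to 25716751 holds relatives of the mammalian Cyp2j genes, which oxidise arachidonic acid. In it 4 genes were lower and 2 higher, beside 24.3% and 19.2% of all genes. The falls lay side by side, in cyp2ad2, cyp2v1, cyp2ad3 and cyp2p6, and the rises further along, in cyp2p9 and cyp2j20. cyp2ad3 had 39.9 and 51.4 CPM in the mutants, against 189 and 175 in wild type (-1.99, SE 0.24, adjusted p = 0.000873). cyp2v1 had 19.8 and 18.9 CPM in the mutants and 36.4 and 33.3 in wild type (-0.85, SE 0.25, adjusted p = 0.0246). cyp2ad2 had 9.30 and 9.93 CPM in the mutants and 19.8 and 17.6 in wild type (-0.96, SE 0.30, adjusted p = 0.0328). These 3 cannot be read apart, since cyp2ad3 lies wholly and cyp2ad2 over 93.5% of its span within cyp2v1 on the other strand, cyp2ad3 had no unique read, and 38.3% of the reads of cyp2ad2 and 80.6% of those of cyp2v1 were unique. cyp2p6 had 10.3 and 9.31 CPM in the mutants and 22.0 and 18.7 in wild type (-1.053, SE 0.30, adjusted p = 0.0223).

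Of the remaining genes of that run, cyp2p9 had 2.92 and 3.01 CPM in the mutants and 0.932 and 0.806 in wild type (1.76, SE 0.60, adjusted p = 0.0415). cyp2j20 had 45.5 and 32.6 CPM in the mutants and 24.3 and 18.5 in wild type (0.87, SE 0.28, adjusted p = 0.0373). cyp2p7, between the falls and the rises, was the run's second gene by mean TPM, with 45.7 ± 6.97 TPM in the mutants and 20.3 ± 17.8 in wild type, and its libraries overlapped on the CPM scale (0.40, SE 0.47, adjusted p = 0.50). By limma-trend on TPM cyp2p7 was called higher (1.43, adjusted p = 0.00557). The 9 cyp2aa genes on chromosome 23, a group found in fish, held 1 rise and 1 fall, both shares below those of all genes (19.2% and 24.3%). cyp2aa9 had 2.72 and 4.18 CPM in the mutants and 1.06 and 1.00 in wild type (1.74, SE 0.59, adjusted p = 0.0414), and cyp2aa6 had 12.3 and 14.3 CPM in the mutants and 22.6 and 24.6 in wild type (-0.83, SE 0.28, adjusted p = 0.0415). The calls of cyp2aa6, cyp2aa9 and cyp2p9 did not pass when any 1 of the 4 libraries was left out, and those of cyp2ad2, cyp2v1 and cyp2p6 did not pass without mutant replicate 1, without mutant replicate 2 or without wild-type replicate 1. On the TPM scale the log2 fold changes of cyp2aa6 (0.14), cyp2ad2 (0.03) and cyp2v1 (0.12) turned their sign, below the median of 0.69 that all genes had there. By limma-trend on that scale cyp2p6 did not pass (-0.057, adjusted p = 0.932). The rise of cyp2j20 did not pass without mutant replicate 1 (adjusted p = 0.274), mutant replicate 2 (0.0617) or wild-type replicate 2 (0.0926).

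Genes of the cyp2k and cyp2x groups, also found in fish, rose where they were called. Of 10 cyp2k genes 4 were higher (19.2% of all genes were), with a median log2 fold change of 1.051. Of 6 cyp2x genes 2 were higher, with a median of 1.00, compared with 0.03 for all genes. With the read level of long genes subtracted, as described below, 1 cyp2k gene and no cyp2x gene were called higher. DESeq2 called 5 cyp2k genes and 1 cyp2x gene higher. cyp2k22 had 20.04 and 19.2 CPM in the mutants, against 7.43 and 2.36 in wild type (1.996, SE 0.51, adjusted p = 0.0144). cyp2k18 and cyp2k6 stand at the ends of the run of 8 on chromosome 3. cyp2k18 had 3.32 and 3.77 CPM in the mutants and 0.889 and 0.779 in wild type (2.08, SE 0.58, adjusted p = 0.0203), and cyp2k6 had 7.24 and 4.58 CPM in the mutants and 1.84 and 1.89 in wild type (1.66, SE 0.50, adjusted p = 0.0267). The rise of cyp2k18 did not pass without mutant replicate 1 (adjusted p = 0.0706) or mutant replicate 2 (0.0957), and that of cyp2k6 did not without mutant replicate 1 (0.197). Of the 6 genes between them none was called on all reads by edgeR, 1 had an unadjusted p under 0.05, and cyp2k19 passed on uniquely mapped reads (adjusted p = 0.0443). cyp2k31 had 87 and 173 reads in the mutants and none in wild type. Against a floor of 3 reads per wild-type library its counted reads were at least 30.8-fold higher in the mutants (adjusted p = 0.00195). That bound holds only for reads as the program assigned them, and how it shared reads between overlapping genes was not tested. All of its reads had several mapping places, and its span lies within zgc:113250, on the same strand, which had 109 and 295 reads in the mutants and 218 and 167 in wild type (-0.42, adjusted p = 0.534).

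On chromosome 25 cyp2x8 and cyp2x9 rose beside cyp2x6 and cyp2x7, which were not called. cyp2x9 had 9.20 and 7.05 CPM in the mutants, against 1.78 and 0.612 in wild type (2.75, SE 0.60, adjusted p = 0.00759). cyp2x8 had 16.8 and 11.2 CPM in the mutants, against 3.71 and 0.2503 in wild type (2.81, SE 0.91, adjusted p = 0.0361), and its wild-type libraries differed by the largest ratio of the genes called higher that had reads in both. DESeq2 did not call cyp2x8 (adjusted p = 0.111), and neither did edgeR without mutant replicate 1 (0.0821). cyp2y3, the highest family 2 gene outside a run by mean TPM over the libraries, had 16.1 and 17.03 CPM in the mutants and 26.4 and 20.1 in wild type and did not pass (-0.49, SE 0.28, adjusted p = 0.188).

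The share of uniquely mapped reads split the P450 genes sharply. At least 95% of the reads were unique in 68 of the 84 genes, 10 had a lower share, and 6 had no unique read. These 6 were cyp1a, cyp2ad3, cyp2k31, cyp7b1, cyp8b1 and cyp17a2, and they were the same 6 whose span lies wholly inside that of another gene. cyp7b1 lies in efr3a, which spans 1181743 bp in the annotation, cyp8b1 in LOC101887081 and cyp17a2 in the vitamin D receptor gene vdra, which spans 1028673 bp. The pattern was not particular to P450 genes. Of all 29548 genes with 10 or more reads 1104 had no unique read, and 1017 of these (92.1%) lay wholly inside another gene. Of the 1095 genes with such reads and such a place, 92.9% had no unique read. Some genes that overlap another gene in part had lower shares, such as 58.5% in cyp39a1, 67.3% in cyp4t8, of whose span 38.5% overlaps the receptor partner gene arnt, and 27.5% in cyp4f3. Others did not, such as cyp2r1, of whose span 19.2% overlaps calca and of whose reads 96.1% were unique. Lower shares were also found without an overlapping gene, as in cyp2k22 (88.5%) and cyp21a2 (94.5%). Partial overlap therefore did not separate the genes with lower shares from the rest.

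On uniquely mapped reads 78 P450 genes could be tested, of which 15 rose (20.3% of all genes did) and 14 fell (25.2% of all genes did). Of the 32 calls on all reads 27 were made the same way. cyp1a, cyp2ad3 and cyp2k31 could not be tested, cyp2ad2 (adjusted p = 0.121) and cyp2j20 (0.0610) did not pass, and cyp11a1 and cyp2k19 were called higher on unique reads only.

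Reads were counted over whole gene spans, introns included, so read density was set against that of long genes, most of whose span is intron. Among 1509 protein-coding genes that span 80 to 160 kb, the 10th percentile of reads per kb was 15.02 and 21.9 in the mutants and 8.07 and 5.23 in wild type. After normalisation the mean level was 1.04 higher on the log2 scale in the mutants. Of the 84 P450 genes 54 lay above this level in both mutant libraries, 59 in both wild-type libraries and 46 in all 4. Among the genes called lower, cyp1c1 had 31.7 and 39.3 times the level in the mutants and 511 and 357 times in wild type, cyp2ad3 40.3 and 44.5 times in the mutants and 332 and 369.8 times in wild type, and all 17 genes called lower lay above it in both wild-type libraries. Among the genes called higher, cyp7a1 had 17.2 and 16.1 times the level in the mutants and 4.01 and 3.88 times in wild type, cyp2r1 had 3.32 and 3.24 times in the mutants and 2.29 and 2.07 times in wild type, and cyp2aa9 and cyp2k31 did not reach it in the mutants.

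With the level subtracted from every gene, 64 P450 genes were tested, of which 5 rose (10.8% of all genes did) and 12 fell (15.5% of all genes did). The rises were those of cyp7a1 (4.099, adjusted p = 0.0224), cyp2r1 (2.64, 0.0262), cyp3c4 (2.48, 0.0330), cyp2j20 (1.47, 0.0399) and cyp2k18. The other 10 genes called higher on all reads did not pass or were not tested. Among the falls were cyp1a (-1.61, adjusted p = 0.0280), cyp1c1 (-1.95, 0.0418), cyp1c2 (-1.53, 0.0461), cyp26b1 (-2.03, 0.0254), cyp27a7 (-2.30, 0.0271) and cyp3c1 (-1.49, 0.0233). cyp51 kept its direction and did not pass (adjusted p = 0.195), and cyp24a1 and cyp2ae1 were called lower here and not on all reads. Both cyp24a1 (0.56 and 0.83 times) and cyp2ae1 (0.83 and 0.73 times) lay below the level in the mutant libraries, where subtraction left them no reads. On all reads each had a log2 fold change of -0.15. cyp27c1 (0.38 and 0.78 times) and cyp26a1 (0.85 and 0.98 times), called lower here and on all reads, also lay below the level in both mutant libraries. Subtraction left these genes no mutant reads either, so the size of their fall after it cannot be read. No untranscribed sequence was at hand to set beside this level. Among genes with a span under 10 kb, fitted alone, 9 P450 genes rose (12.7% of those genes did) and 4 fell (13.4% of those genes did), of 38 tested.

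**Figure D4:**
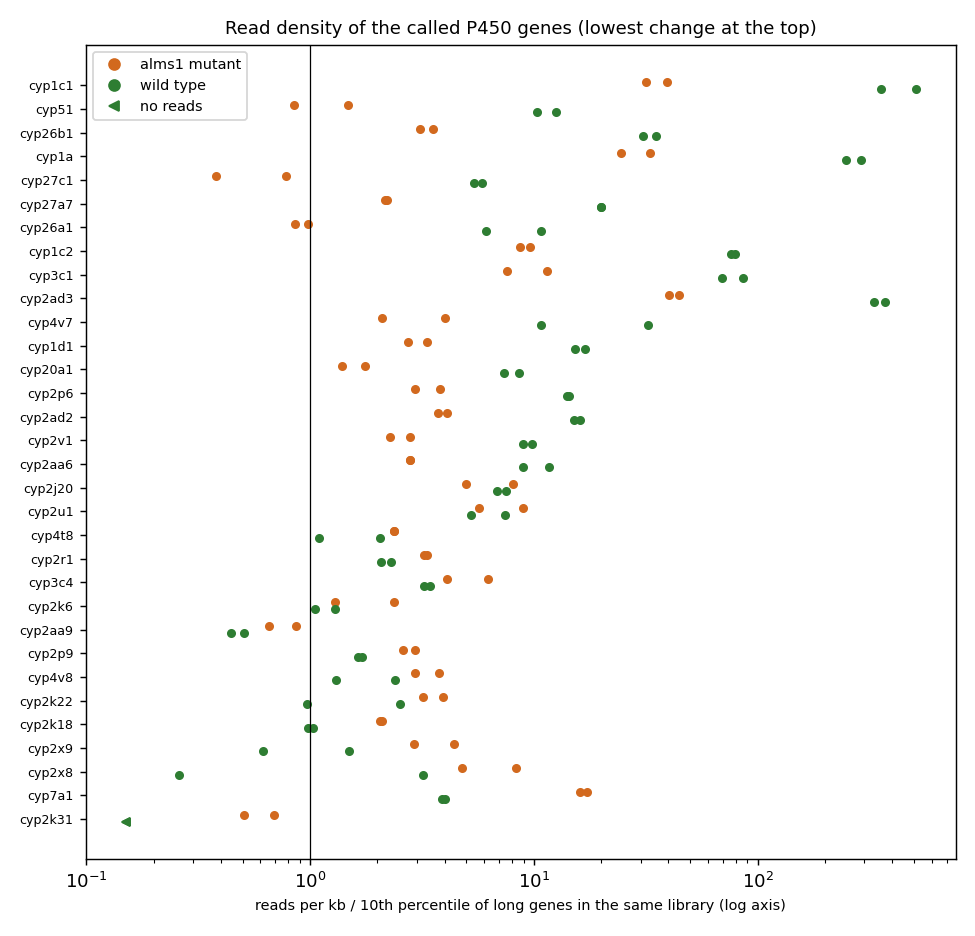
Reads per kb of the 32 P450 genes called, divided by the level of long genes (80 to 160 kb, 10th percentile) in the same library, on a log axis, with the alms1 mutant libraries in orange above the wild-type libraries in green and a line at 1. Genes called lower (top) lay above 1 in both wild-type libraries, up to 511 for cyp1c1, whereas cyp2aa9 and cyp2k31 among those called higher (bottom) lay below 1 in both mutant libraries.

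Of 9 redox partners 5 were lower and 1 higher, beside 24.3% and 19.2% of all genes, with a median of -0.85. pgrmc1, a haem protein that binds P450 enzymes, had 41.6 and 33.9 CPM in the mutants, against 94.7 and 120.5 in wild type (-1.51, SE 0.24, adjusted p = 0.00233). cyb5r3, a cytochrome b5 reductase, fell by 1.51 (SE 0.29, adjusted p = 0.00445) and cyb5a, a cytochrome b5, by 0.85 (SE 0.23, adjusted p = 0.0171), though on the TPM scale cyb5a stood at 0.15. By limma-trend on TPM pgrmc1 (adjusted p = 0.224) and cyb5r3 (0.359) did not pass. With the read level of long genes subtracted, edgeR called neither cyb5r3 (adjusted p = 0.0655) nor cyb5a (0.446). Among genes with a span under 10 kb it called neither as well (0.0526 and 0.427). The call of cyb5a did not hold without mutant replicate 1 or without mutant replicate 2, at log2 fold changes of -0.84 and -0.86. The oxidoreductase genes porb, which fell by 1.19 (adjusted p = 0.0173), and pora, which did not pass (-0.71, adjusted p = 0.104), serve all microsomal P450 enzymes. fdx1b, the ferredoxin of steroid synthesis in zebrafish, was the redox gene called higher, with 15.4 and 26.3 CPM in the mutants and 7.39 and 9.95 in wild type (1.27, SE 0.37, adjusted p = 0.0234).

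Of 8 genes of xenobiotic receptors and conjugation 5 fell (24.3% of all genes did), with a median of -1.02. The sulfotransferase gene sult1st1 had 15.8 and 15.7 CPM in the mutants, against 90.1 and 89.5 in wild type (-2.51, SE 0.23, adjusted p = 0.000497), and sult2st1 fell by 2.17 (SE 0.26, adjusted p = 0.000823). nr1i2, the pregnane X receptor that in mammals switches on CYP3A genes, had 70.6 and 55.0 CPM in the mutants and 194 and 275 in wild type (-1.90, SE 0.27, adjusted p = 0.00151). By limma-trend on TPM nr1i2 did not pass (adjusted p = 0.122).

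**Figure D5:**
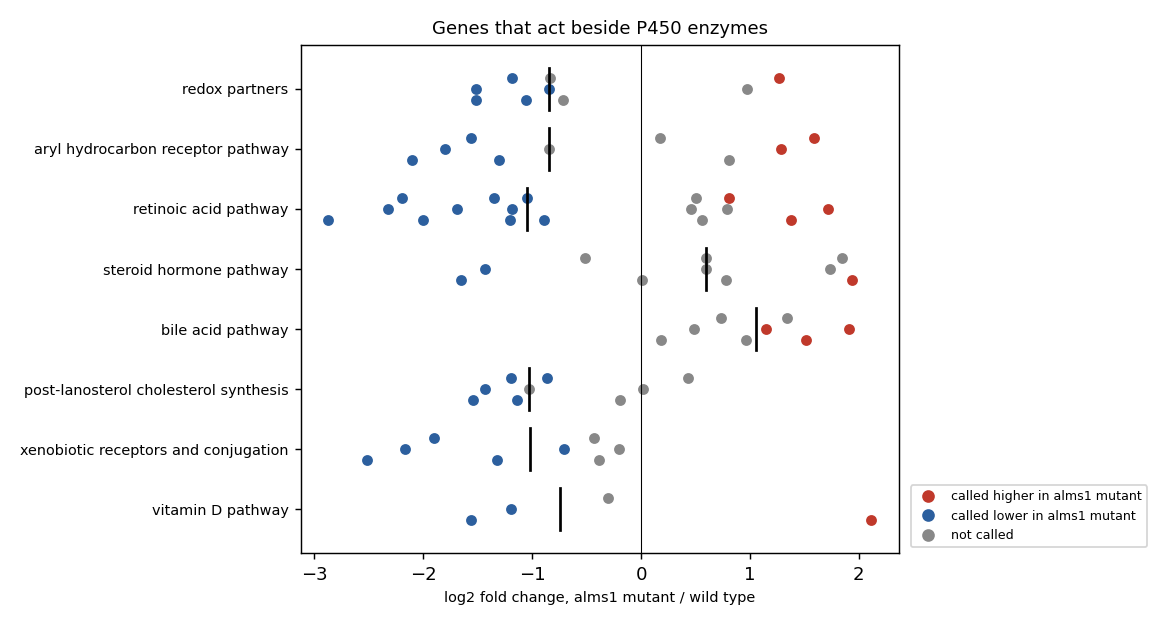
Log2 fold change, alms1 mutant over wild type, of each tested gene (points, coloured by call) in 8 lists of genes that act beside P450 enzymes, with a bar at the median of each list. The medians lay below 0 except for the steroid hormone pathway (0.59) and the bile acid pathway (1.06), compared with 0.03 for all genes.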

How the data were processed

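Libraries of the sorted mCherry-positive cells were made by Nextera XT tagmentation, so that strand is not known. The authors ran CLC Genomics Server v10.0.1 on reads of 150 nt, aligned to GRCz10. Neither the annotation release nor any read filter is stated in these sources. The authors deposited, for each gene, whole-number counts of all reads and of those with 1 mapping place. Their program also gave TPM (deposited, per kb with a common sum) and RPKM (deposited, per kb relative to mapped reads), the last of which was not used. Exon length equals the gene span for 99.4% of genes. Counts were exon reads where exons are annotated and gene reads elsewhere. Chromosomes were numbered through gene symbols shared with a GRCz12tu gene table, of which 98.4% to 99.5% gave the same number, and coordinates are those of the files.

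Genotypes were compared by edgeR 4.0.16 in R 4.3.3 (TMM, filterByExpr at its defaults, quasi-likelihood F test, Benjamini-Hochberg adjustment over all genes at 0.05), without a replicate block. Fold changes are mutant over wild type, CPM are scaled by TMM factors, and SE are standard errors of log2 fold changes. The biological coefficient of variation was 0.340. With 2 libraries against 2, exact permutation tests cannot give a two-sided p below 0.333. The fit was tested on simulated data. Read floors cover counting error only. Alternatives were uniquely mapped reads, DESeq2 1.42.0, RLE factors, limma-trend 3.58.1 on log2(TPM + 1), a filter at 50 reads or none, genes with a span under 10 kb alone, subtraction of the long-gene level (10th percentile, spans of 80 to 160 kb), the replicate number as a block, and leaving out each library.

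The P450 genes, the partner and marker lists and the alternatives were chosen with earlier results of these data known. Genes were named by a rule. It takes, in each class, up to 6 called members whose libraries do not overlap, with the smallest adjusted p, and the 2 members with the highest mean TPM, then a list of P450 genes of known role (cyp1a, cyp1b1, cyp2r1, cyp2u1, cyp3a65, cyp7a1, cyp8b1, cyp11a1, cyp11a2, cyp11c1, cyp17a1, cyp19a1a, cyp19a1b, cyp20a1, cyp21a2, cyp24a1, cyp26a1, cyp26b1, cyp26c1, cyp27b1, cyp27c1, cyp39a1 and cyp51), alms1, and up to 3 genes of each partner list. Other genes named (the remaining called members, cyp2p7, cyp2y3, cyp3c2, cyp3c3, cyp4f3, cyp7b1, further partner genes, genes that overlap a member and members given only by their highest level or a call) were added after their values were seen. dhcr7 stands in the cholesterol and the vitamin D list. Of the genes listed 8 have no row under that symbol in the files. Plots were drawn with matplotlib 3.10.9 and tables with pandas 2.3.3, under Python 3.11.15.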

Additional observations from a re-analysis of the deposited data

How the results depend on the processing

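Of the 32 P450 genes called, 9 kept their call in every alternative that tested them, cyp1a, cyp1c1, cyp1c2, cyp26b1, cyp2ad3, cyp2k31, cyp2r1, cyp3c1 and cyp7a1, and 11 did so in those that leave no library out. The count of 15 higher became 9 among genes under 10 kb, 36 by limma-trend on TPM and 5 with the long-gene level subtracted, and it ran from 8 to 19 with 1 library left out (8 without mutant replicate 1, 9 without mutant replicate 2). The count of 17 lower became 4 among genes under 10 kb and 6 by limma-trend, and ran from 10 to 15 with 1 library left out (10 without mutant replicate 2). Of the 84 genes 38 were tested among genes under 10 kb, of which 7 were called higher and 7 lower in the fit of all genes. After subtraction 64 were tested. The share of all genes called with 1 library left out is not given, so the ranges for those fits cannot be read as particular to P450 genes. The cause of the shifts in these counts was not tested. For cyp1a, cyp2ad3 and cyp2k31 uniquely mapped reads could not be tested, so their kept calls rest on fewer alternatives. cyp2k31 was also tested neither after subtraction nor among genes under 10 kb. Among 25 genes named by the rule that are not P450 genes, 11 lost their call with the long-gene level subtracted. By limma-trend on TPM 13 of the 25 lost it and 2 turned their sign.

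Detected genes in the mutants numbered 40 at a TPM of at least 5 and 76 to 81 with 1 library left out. In wild type they numbered 17 at a TPM of at least 5, 81 with a limit of 1 read, and 48 to 64 with 1 library left out.

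With the replicate number as a block (replicate block) 16 genes were higher and 15 lower. The share of all genes called under the block is not given, so these counts cannot be read as particular to P450 genes. Samples of the same number did not deviate together across genes (correlation -0.076 over 28079 genes, 2 pairs). With 2 libraries a genotype the deviations mirror each other, so this cannot tell whether samples of the same number shared a sort, clutch or batch. Under the block cyp11a1 (0.00948) and cyp39a1 (0.0427) passed, and cyp2aa6, cyp2aa9, cyp2ad2 and cyp2p9 did not.

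Some log2 fold changes turned their sign. By limma-trend on TPM, with a median of all genes of 0.69, those of 20 P450 genes did, of which 4 lay above that median and 3 had been called. Among the genes named by value these were cyp26c1 (0.46), cyp24a1 (0.48), cyp3a65 (0.90), cyp11c1 (0.51), cyp2aa6 (0.14), cyp2ad2 (0.031), cyp2v1 (0.12), cyp2y3 (0.49), alms1 (0.10) and cyb5a (0.15). The value of cyp3a65, at -0.00, was 0.008 by DESeq2 and with RLE factors, 0.03 with at least 50 reads, 0.56 among genes under 10 kb, 0.50 after subtraction, 0.21 without mutant replicate 2, 0.25 without wild-type replicate 2 and -0.26 without mutant replicate 1, the lowest with a library left out. With 1 library left out, cyp24a1 ran from -0.61 to 0.18 (above 0 without mutant replicate 1), cyp11c1 from -0.59 to 0.36 (above 0 without mutant replicate 2 and, at 0.036, without wild-type replicate 1), and cyp2p7 from -0.14 to 1.38 (below 0 without wild-type replicate 2 and, at -0.071, without mutant replicate 1). cyp2y3 was at 0.061 among genes under 10 kb and 0.044 after subtraction.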
